A study of Mus musculus with 14 samples.

Results

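CD166 cells were compared with LGR5 cells of the ileum, the last stretch of the mouse small intestine, in 4 of the 14 RNA sequencing libraries of the series. The members were chosen by their labels alone: LGR5 libraries 1 and 2 and CD166 libraries 1 and 2 of the distal tissue. All mice were given as C57Bl6, male and 6 to 12 weeks old, and the ileal tissue was taken 5 to 8 cm from the cecum. LGR5 cells are named by LGR5, a receptor that marks the stem cells between the Paneth cells at the crypt base. How LGR5 was detected, and any reporter allele it needed, are not given in the labels. CD166 cells were sorted as CD44+/CD24lo/CD166+, by surface proteins and not by a stem cell transgene. The matching 4 jejunal libraries, taken near the pylorus, and 6 libraries of crypt cells are used only for comparison. Nothing in the labels ties a library to a mouse, and the p-values therefore cover only the spread among libraries, which may be technical.

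The crypt base holds cycling LGR5 stem cells interleaved with Paneth cells. Paneth cells secrete antimicrobial proteins, among them the alpha-defensins, lysozyme and angiogenin 4, and also make Wnt and Notch ligands that keep the neighbouring stem cells in their state. CD166, encoded by Alcam, is an adhesion molecule found on both cell types at the crypt base. Secretory cells arise from the same stem cells and include goblet cells that make mucus, enteroendocrine cells that make hormones, and chemosensory tuft cells. A sort with surface proteins can therefore collect stem cells together with their secretory neighbours. In bulk libraries, fewer cells of a type and less RNA per cell cannot be told apart.

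The genes called higher in CD166 cells by the main test were almost all alpha-defensins, and the promoters of several of these are near copies. RefSeq promoter sequences (GRCm38.p6) were matched for 9 of the 17 called genes, 7 of them alpha-defensins. The 150 bases before the annotated start are printed 5′ to 3′ for 3 alpha-defensin genes and for Ang4, the called Paneth gene of another family. Capitals mark TATAAA, the letters of a TATA box, and CTTTGA, the core letters of a TCF/LEF site, which stand here as TCAAAG on the other strand.
Defa22 (chr8:21162127-21162276, plus strand): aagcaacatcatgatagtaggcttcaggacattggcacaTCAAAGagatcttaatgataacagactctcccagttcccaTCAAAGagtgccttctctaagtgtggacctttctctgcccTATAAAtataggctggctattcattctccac
Gm15308 (chr8:21528880-21529029, plus strand): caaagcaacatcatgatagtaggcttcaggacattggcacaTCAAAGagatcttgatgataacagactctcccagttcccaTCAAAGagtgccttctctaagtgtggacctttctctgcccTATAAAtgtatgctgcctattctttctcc
Gm10104 (chr8:21064888-21065037, plus strand): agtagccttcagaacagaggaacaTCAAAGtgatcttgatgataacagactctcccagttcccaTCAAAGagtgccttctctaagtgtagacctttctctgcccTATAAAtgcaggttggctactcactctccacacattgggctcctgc
Ang4 (chr14:51773591-51773740, minus strand): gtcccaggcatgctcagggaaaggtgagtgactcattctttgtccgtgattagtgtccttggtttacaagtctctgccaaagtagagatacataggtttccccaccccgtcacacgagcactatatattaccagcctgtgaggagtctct
Over the 300 bases held for each gene, aligned without gaps, Defa21 and Defa22 were 100% identical, Gm14850 and Gm10104 98.0%, and Gm15308 and Defa22 97.7%. The lowest identity among Defa21, Defa22, Gm15308, Gm14850 and Gm10104 was 90.1%. The other alpha-defensin promoters stood further off: Gm15284 was 72.8% to 75.1% identical to these genes, and Gm14851 64.5% to 66.9% identical to any other alpha-defensin. The 3 printed are thus all of the closer kind. TATAAA, sought on both strands in the 300 bases, was in 7 of 7 alpha-defensin promoters, and CTTTGA was in 6, more than once in 4 of them. Of all 32851 promoters of that length in the table, 13.6% held TATAAA and 16% held CTTTGA. The 2 motifs share no overlap as printed. The Ang4 promoter held neither and was at most 33.6% identical to any of the 7. These matches describe letters and not bound sites, and near-identical genes are not separate observations of them. Likewise, reads may be shared between near-identical entries, so the value of any 1 alpha-defensin entry is uncertain.

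Total expected counts were 10610053 and 8723351 in the LGR5 libraries and 10503384 and 16272345 in the CD166 libraries, within the 6295828 to 20380369 of the whole series. No library was a copy of another: 48.2% of genes differed beyond counting noise between the LGR5 libraries and 50.6% between the CD166 libraries, where noise alone gives 5%. LGR5 library 1 correlated more closely across genes with CD166 library 1 (r = 0.98 over 12909 genes, which are not independent replicates) than with LGR5 library 2 (r = 0.9747 over 12671). All 4 libraries, though labelled male, held the female transcript Xist beside the Y-linked Ddx3y. Counts scaled to library size (CPM) were 372.0 and 503.2 for Xist and 21.8 and 15.8 for Ddx3y in LGR5 cells. In CD166 cells they were 614.3 and 796.5 for Xist and 24.4 and 4.58 for Ddx3y. The part of this unevenness in the results was not tested. Among the crypt libraries, the one labelled ileum crypt 3 stood apart from ileum crypt 1 and 2. It had 294.6 CPM of Defa22 against 2269 and 2111 CPM, while jejunum crypt 1 had 366.2 CPM. For Gm15308 it had 25.8 CPM against 811.1 and 931.7 CPM, while jejunum crypt 1 had 24.8 CPM. Ileum crypt 1 and jejunum crypt 2, also labelled male, held 1667 and 1275 CPM of Xist and 0 CPM of Ddx3y. The cause of either was not tested.

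Among called genes, the populations differed mainly in the Paneth secretory product. Of 13051 genes tested, 17 were called at an adjusted p under 0.05 (0.13%, edgeR quasi-likelihood test with Benjamini-Hochberg adjustment over all tested genes), and all 17 rose in CD166 cells. They were 15 alpha-defensin entries, Ang4 and Rgs4. No gene was called lower in this edgeR fit. An unadjusted p under 0.05 was reached by 14.4% of genes, 1159 higher and 721 lower. DESeq2 called 241 genes higher and 32 lower, and limma-voom called 18 higher and 0 lower.

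Defa24 was the most abundant of the called alpha-defensins. It stood at 2594 and 2744 CPM in LGR5 cells and at 13848 and 15045 CPM in CD166 cells. Both CD166 libraries lay far above both LGR5 libraries, by 5.42-fold (log2 2.44 ± 0.27 SE, n = 2 libraries a group, edgeR adjusted p = 0.0123). Defa22 had 520.7 and 365.5 CPM in LGR5 cells against 2820 and 3082 CPM in CD166 cells, and Defa21, with its identical promoter, 618.4 and 362.0 CPM against 3176 and 3332 CPM. Their differences were alike, log2 2.74 ± 0.25 and 2.74 ± 0.29. The smallest p belonged to Defa26, a less abundant member, at 39.7 and 40.3 CPM in LGR5 cells and 223.8 and 258.7 CPM in CD166 cells (log2 2.60 ± 0.16, edgeR adjusted p = 0.00234). The replicates of Defa26 lay close together within each population. Its choice by the smallest p favours this, so it is no further evidence. Gm15292 had the largest change among the alpha-defensins, from 12.3 and 7.32 CPM to 76.6 and 78.0 CPM (log2 2.97 ± 0.24).

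The other called alpha-defensin entries named here moved by similar amounts. The log2 differences were 2.63 for Gm15284, 2.60 for Gm10104, 2.55 for Gm15308, 2.41 for Defa3, 2.34 for Gm14850 and 2.33 for Defa20. They were 2.32 for Defa-ps1, listed as a pseudogene, 2.24 for Gm14851 and 2.20 for Defa17. Of 41 alpha-defensin entries in the files, 23 passed the filter on low counts, 15 were called and the 23 tested entries ran from log2 1.76 to 2.97. An entry can pass that filter through its level in CD166 cells alone, so the tested entries do not stand for the whole family.

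Because reads may be shared between near-identical entries, the counts of all 41 were also summed to 1 feature, an alternative chosen after the data were seen. The summed level was 5580 and 5161 CPM in LGR5 cells and 29065 and 31026 CPM in CD166 cells. This was 0.571% and 0.549% of all counts in LGR5 cells against 2.98% and 3.00% in CD166 cells. In the crypt libraries labelled ileum 1, 2 and 3 it was 22405, 25615 and 10170 CPM, between the sorted populations. The sum differed by log2 2.49 ± 0.29, or 5.62-fold, but with the family as 1 feature its adjusted p was 0.161 and Ang4 alone remained called (edgeR). The 15 alpha-defensin calls are thus not 15 separate results.

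Ang4, a secreted ribonuclease of Paneth cells, gave a measure outside the defensin family. Its level was 214.0 and 162.3 CPM in LGR5 cells and 985.3 and 1076 CPM in CD166 cells. Neither group overlapped the other, and the rise was 5.50-fold (log2 2.46 ± 0.21, edgeR adjusted p = 0.00391). Rgs4, which encodes a regulator of G protein signalling, rose from 0.829 and 1.40 CPM to 9.65 and 17.2 CPM (log2 3.60 ± 0.46, edgeR adjusted p = 0.0331). It lay just under the level set for naming genes, is named after its value was seen, and is a low-count gene. The plot of called genes by library gives the levels of the 15 genes taken by the naming rule, which required groups that did not overlap.

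**Figure D1:**
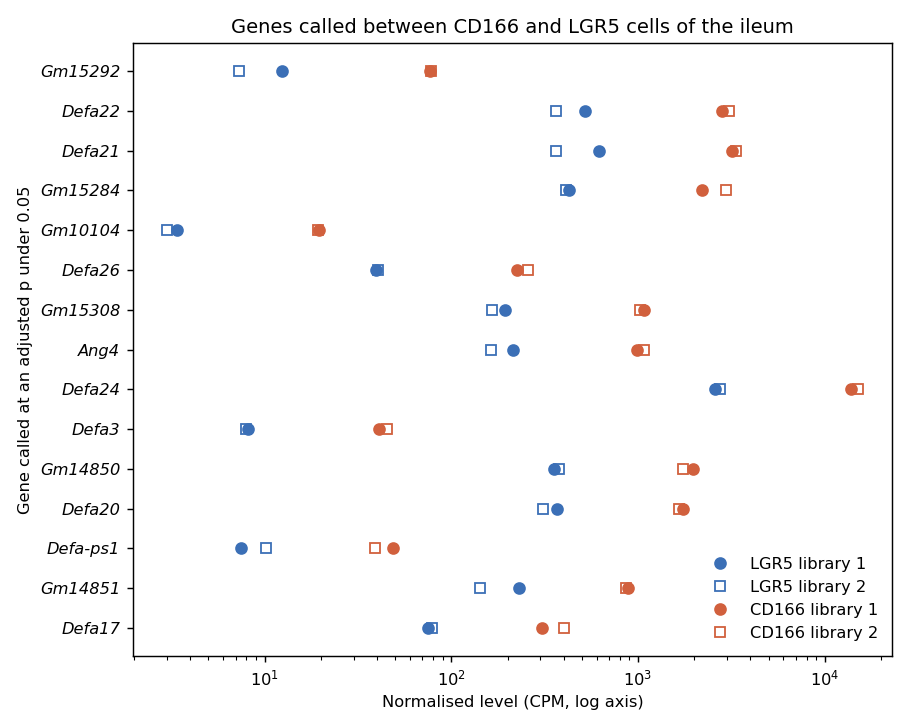
Normalised level in CPM (horizontal, log axis) of the 15 called genes of the naming rule (vertical) in each of the 4 ileal libraries, with filled circles for library 1 and open squares for library 2. The rule chose genes whose groups did not overlap. Levels run from 3.02 CPM for Gm10104 in LGR5 library 2 to 15045 CPM for Defa24 in CD166 library 2.

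The calls depended on which libraries were used. Without CD166 library 2 no gene was called by edgeR (552 at an unadjusted p under 0.05), while the 15 genes of the naming rule ran from log2 2.01 to 2.97, against 2.20 to 2.97 with it. The count was 148 without CD166 library 1, 47 without LGR5 library 1 (20 higher, 27 lower) and 15 without LGR5 library 2. No gene of the 17 was called in the fit of all 14 libraries or with the deposited log2 values in limma, while the 15 genes ran from log2 2.20 to 2.97 and from 2.17 to 3.01 there.

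The rest of the Paneth list held genes with large and with small differences. Of 23 listed genes 20 were tested, and 8 were called higher and none lower (0.13% and 0% of all tested genes). The median log2 difference was 1.54 against -0.02 for all tested genes. The 8 called were 7 alpha-defensins and Ang4. Lyz1, the lysozyme gene, had 3628 and 3244 CPM in LGR5 cells and 15809 and 10519 CPM in CD166 cells. Its groups did not overlap, but at log2 1.94 ± 0.30 it was not called (edgeR adjusted p = 0.0911). Itln1, the lectin intelectin, had 1267 and 1751 CPM against 4576 and 4164 CPM (log2 1.54 ± 0.26, adjusted p = 0.129). Mmp7, the protease that activates alpha-defensins, had 425.4 and 693.2 CPM against 1227 and 2046 CPM (log2 1.55 ± 0.34, adjusted p = 0.201). Neither passed the test. Wnt3, the Wnt ligand of Paneth cells, stood at 35.2 and 41.7 CPM in LGR5 cells and 37.8 and 34.7 CPM in CD166 cells, with overlapping groups. Dll4, a Notch ligand, was at log2 -0.45 ± 0.35, and Kit, a receptor on deep secretory cells, at log2 -0.61 ± 0.30, neither of them called. Among other secreted proteins, Pla2g2a, an antimicrobial phospholipase, had 31.0 and 70.1 CPM against 92.4 and 72.2 CPM (log2 0.70 ± 0.45, edgeR adjusted p = 0.535). Pnliprp2, a lipase-related protein, was at log2 0.47 ± 0.35 and Habp2 at 0.02 ± 0.34. Pla2g2a, Pnliprp2, Habp2, Wnt3, Dll4 and Kit lie outside the naming rule for the list and are named after their values were seen. The summed level of the list was 10320 and 10569 CPM in LGR5 cells and 45829 and 42486 CPM in CD166 cells.

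None of the genes that name the sort was called between the populations. Lgr5 had 340.0 and 123.2 CPM in LGR5 cells and 228.4 and 157.9 CPM in CD166 cells, so that both CD166 values lay between the LGR5 values (log2 -0.25 ± 0.59, edgeR adjusted p = 0.872). In the ileal crypt libraries Lgr5 stood at 39.4 to 79.6 CPM, below all 4 sorted libraries. Alcam, which encodes CD166, had 50.7 and 46.4 CPM in LGR5 cells and 39.3 and 38.3 CPM in CD166 cells (log2 -0.32 ± 0.16, adjusted p = 0.381). Cd44 had 233.1 and 115.6 CPM against 172.1 and 190.9 CPM, and Cd24a had 699.5 and 971.8 CPM against 738.0 and 1068 CPM. The levels of Lgr5, Cd44 and Cd24a overlapped between the populations, and those of Alcam did not, lying lower in CD166 cells.

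Stem cell genes were present in both populations. Of 27 genes on the list of crypt base columnar stem cells, 27 were tested, 0 were called by edgeR, DESeq2 or limma-voom, and 2 were lower and 0 higher at an unadjusted p under 0.05. Of all tested genes, 5.52% were lower and 8.88% higher at that p. The median of the 27 was log2 -0.28, and 3 of them lay above 0. Olfm4, the most abundant of them, had 15599 and 6665 CPM in LGR5 cells and 11304 and 10893 CPM in CD166 cells. LGR5 library 1 was the highest and LGR5 library 2 the lowest of the 4. Slc12a2, an ion transporter of crypt cells, had 2430 and 1761 CPM against 1510 and 1285 CPM (log2 -0.58 ± 0.24, adjusted p = 0.324). Clca4, of the family of chloride channel regulators, had 4977 and 2660 CPM against 2946 and 2255 CPM. The summed list was 28217 and 14202 CPM in LGR5 cells and 19543 and 17423 CPM in CD166 cells, so that the spread within LGR5 cells exceeded the gap between populations. Of 8 genes linked to reserve stem cells 0 were called by edgeR, DESeq2 or limma-voom, 1 was higher at an unadjusted p under 0.05 and the median was log2 -0.10. Hopx stood at 213.6 and 205.7 CPM against 253.9 and 288.1 CPM, and Bmi1 at 37.5 and 37.7 CPM against 40.5 and 37.4 CPM.

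Most enteroendocrine genes had higher levels in CD166 cells, 34 of 36 lying above 0, but the libraries varied and edgeR called none. Of 36 enteroendocrine genes tested, 0 were called by edgeR, 12 by DESeq2 and 1 by limma-voom, all of them higher. Of all 13051 tested genes, edgeR called 17 higher, DESeq2 241 and limma-voom 18. At an unadjusted p under 0.05, 20 were higher and 1 lower (8.88% and 5.52% of all tested genes), and the median was log2 1.71. Both CD166 libraries lay above both LGR5 libraries for 29 of the 36, as they did for 24.1% of all tested genes. Sst, the somatostatin gene, had 15.1 and 32.8 CPM in LGR5 cells and 545.7 and 1063 CPM in CD166 cells (log2 5.07 ± 0.63, edgeR adjusted p = 0.178). Gip, encoding the incretin of K cells, had 5.80 and 42.9 CPM against 235.6 and 1396 CPM, with a log2 difference of 5.07 ± 1.83. Chgb, a granule protein, had 99.5 and 203.2 CPM against 276.2 and 877.8 CPM (log2 1.93 ± 0.81). For each of these genes library 2 was the higher in both populations, and in each population this held for 34 of the 36 genes. Leaving out CD166 library 1 gave 7 edgeR calls on the list and leaving out LGR5 library 2 gave 2. The summed list was 470.7 and 988.4 CPM in LGR5 cells and 2168 and 5433 CPM in CD166 cells.

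The other hormone genes of the list, taken by their role, did not move evenly. Gcg, the glucagon gene, had 77.5 and 186.9 CPM against 340.1 and 365.5 CPM (log2 1.41 ± 0.47), and Cck, the cholecystokinin gene, 3.32 and 8.83 CPM against 35.6 and 85.9 CPM (log2 3.34 ± 0.77). Pyy was at log2 2.92 ± 0.93, Sct at 2.41 ± 0.85 and Ghrl at 1.99 ± 1.14, while Nts, the neurotensin gene, was at 0.15 ± 0.78 with overlapping groups. Tph1, the enzyme of serotonin synthesis, was at log2 0.71 ± 0.46 and Chga at 0.58 ± 0.46. Neurog3, the factor of enteroendocrine progenitors, had 15.2 and 32.2 CPM in LGR5 cells and 12.0 and 11.4 CPM in CD166 cells (log2 -1.02 ± 0.37). Isl1, a factor of maturing endocrine cells, went the other way, with 3.87 and 9.80 CPM against 25.5 and 50.5 CPM (log2 2.49 ± 0.61). None of these genes was called by edgeR.

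**Figure D2:**
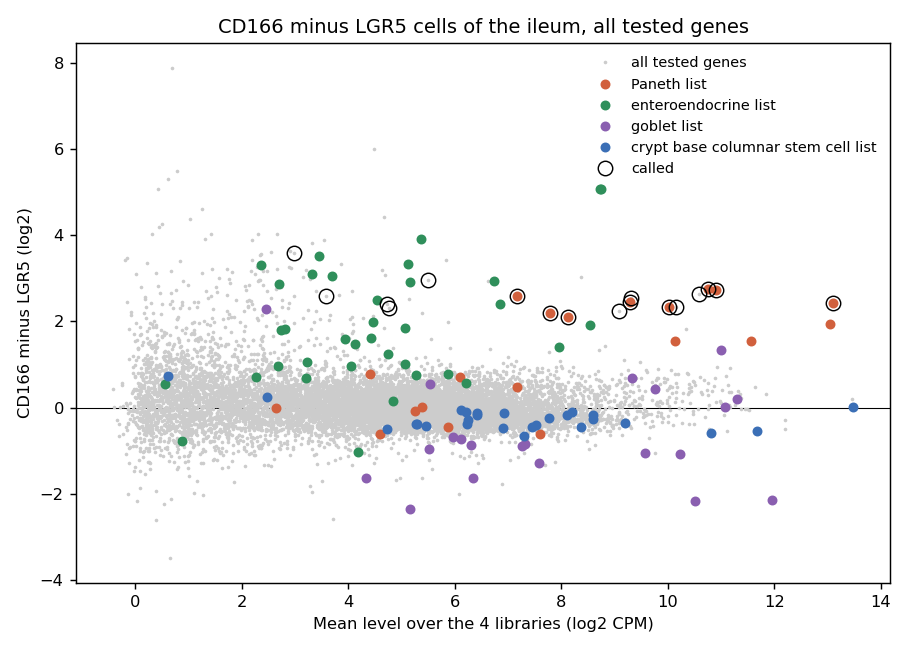
CD166 minus LGR5 log2 difference (vertical) against the mean log2 CPM over the 4 ileal libraries (horizontal) for all 13051 tested genes in grey, with members of 4 lists in colour and called genes ringed. The highest of the 17 ringed genes is Rgs4 at log2 3.60, while Sst and Gip, the highest enteroendocrine points at log2 5.07, are not called.

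Goblet genes went in both directions, 7 of 21 lying above 0. Of the 21, 0 were called by edgeR and limma-voom, and DESeq2 called 2 lower, against 32 of all 13051 tested genes. At an unadjusted p under 0.05, 1 was higher and 4 lower (8.88% and 5.52% of all tested genes). The median of the list was log2 -0.87. Muc2, the gel-forming mucin, had 1389 and 1805 CPM in LGR5 cells and 761.8 and 745.2 CPM in CD166 cells. Its groups were apart (log2 -1.08 ± 0.22, edgeR adjusted p = 0.165). Fcgbp, another mucus protein, had 3338 and 9238 CPM against 1266 and 1594 CPM (log2 -2.14 ± 0.53, adjusted p = 0.241). Agr2, a protein of mucin folding, was at log2 0.02 ± 0.78. Spink4, a protease inhibitor of goblet cells, had 639.2 and 1623 CPM against 1947 and 3786 CPM, with the groups apart in the upward direction (log2 1.34 ± 0.59, adjusted p = 0.397). Retnlb, at low counts, was at log2 2.29 ± 0.76 (adjusted p = 0.290). Spink4 and Retnlb are named after their values were seen. Tff3, the trefoil peptide, was high in library 2 of both populations, with 1178 and 3389 CPM against 1312 and 3933 CPM. In LGR5 cells library 2 was above library 1 for all 21 genes, and in CD166 cells for 20. The summed list was 9878 and 28352 CPM in LGR5 cells and 9065 and 17265 CPM in CD166 cells. Without LGR5 library 1, 6 goblet genes were called by edgeR, and without any other single library none was.

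Tuft genes were high in library 2 of both populations. For all 20 tested genes library 2 was above library 1 in both populations, and none had groups apart. By edgeR, DESeq2 or limma-voom 0 were called, and 0 reached an unadjusted p under 0.05. Of all 13051 tested genes, groups were apart for 24.1% upward and 25.1% downward, and edgeR called 0.13%. At an unadjusted p under 0.05, 8.88% were higher and 5.52% lower. Dclk1, the common tuft marker, had 59.6 and 205.5 CPM in LGR5 cells and 73.7 and 186.9 CPM in CD166 cells. The list's median was log2 0.20.

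The genes with the strongest evidence in the downward direction were not called either, and are given by their F-test p. Cpm, the carboxypeptidase M gene, had the smallest, with 100.0 and 83.4 CPM in LGR5 cells and 43.8 and 40.6 CPM in CD166 cells (log2 -1.11 ± 0.16, edgeR adjusted p = 0.0626). Muc2 came next. Cyp2e1, a cytochrome P450, had 20.1 and 10.8 CPM against 4.82 and 3.11 CPM (log2 -1.96 ± 0.39). Cpd, a carboxypeptidase of the secretory pathway, had 276.8 and 326.2 CPM against 172.4 and 180.9 CPM. Nr3c2, the mineralocorticoid receptor, had 40.2 and 57.0 CPM against 26.1 and 22.7 CPM (log2 -0.99 ± 0.22), and Chrm1, a muscarinic acetylcholine receptor, 21.9 and 33.9 CPM against 13.2 and 12.9 CPM. Slc22a23, Usp9x, Mmp15, Zdhhc9, 5330417C22Rik, Mansc1, Slc38a1, Pcdhga11 and 2310022B05Rik filled the other places, with log2 differences from -0.95 to -0.64. The adjusted p of the 15 ran up to 0.197. The naming rule took only genes whose groups did not overlap, which held for 25.1% of all tested genes in that direction.

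Signalling lists of the crypt base showed small differences. Of all tested genes, 8.88% were higher and 5.52% lower at an unadjusted p under 0.05. Of 18 genes of Wnt feedback and Wnt targets tested, 0 were called by edgeR, 1 was higher and 1 lower at an unadjusted p under 0.05, and the median was log2 -0.27. Axin2, the feedback inhibitor, had 487.9 and 307.9 CPM in LGR5 cells and 426.3 and 282.1 CPM in CD166 cells. Of 19 Notch genes 0 were called by edgeR and 4 were lower at an unadjusted p under 0.05, with a median of log2 -0.33. Dll1, a Notch ligand of secretory progenitors, had 123.2 and 266.4 CPM against 91.5 and 83.9 CPM (log2 -1.15 ± 0.41), and Atoh1, the factor that sets secretory fate, had 72.1 and 176.9 CPM against 55.0 and 55.5 CPM (log2 -1.17 ± 0.50). Both were highest in LGR5 library 2. Of 42 cell cycle genes 0 were called by edgeR and 8 were higher at an unadjusted p under 0.05, with a median of log2 0.20. Mki67, the proliferation marker, had 503.6 and 384.6 CPM against 402.3 and 405.7 CPM. Eph receptors and ephrins (11 tested) had a median of log2 -0.31, immediate early genes (24) of 0.11, MHC class II genes (7) of 0.09, general epithelial genes (11) of -0.18, and genes of secretory protein folding (22) of -0.03. No member of these 5 lists was called by edgeR or limma-voom, and 0 to 2 in each direction passed an unadjusted p of 0.05. DESeq2 called 1 immediate early gene lower. On the Wnt, Notch and cell cycle lists limma-voom called none, and DESeq2 called 1 Wnt gene higher and 1 Notch gene lower. Of all 13051 tested genes DESeq2 called 241 higher and 32 lower. Of 21 genes of exocytosis tested, 0 were called by edgeR and limma-voom and 2 by DESeq2, both higher, and 5 were higher and 2 lower at an unadjusted p under 0.05. Their median was log2 0.04.

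Enterocyte and defence genes lay mostly above 0. Of all 13051 tested genes, 8.88% were higher and 5.52% lower at an unadjusted p under 0.05, and DESeq2 called 241 higher. Of 26 enterocyte genes tested, 0 were called by edgeR and limma-voom and 3 by DESeq2, 11 were higher and 0 lower at an unadjusted p under 0.05, and the median was log2 0.53. Mgam, a brush border enzyme of starch digestion, was at log2 -0.34 ± 0.27 and Cdhr5, a brush border cadherin, at -0.20 ± 0.27. Fabp6, the ileal bile acid binding protein, had 112.2 and 48.5 CPM in LGR5 cells and 299.0 and 423.1 CPM in CD166 cells (log2 2.18 ± 0.47, edgeR adjusted p = 0.239). It is named for its place as an ileal gene after its value was seen. Of 10 defence genes 0 were called by edgeR, DESeq2 or limma-voom and 5 were higher at an unadjusted p under 0.05, with a median of log2 1.00. Pigr, the receptor that carries immunoglobulins across the epithelium and the most abundant of the 10, had 5363 and 4747 CPM in LGR5 cells and 4015 and 4280 CPM in CD166 cells, with the groups apart (log2 -0.28 ± 0.23). Reg4 had 263.0 and 452.9 CPM against 530.5 and 1004 CPM, and Reg3b, an antimicrobial lectin, 114.3 and 364.9 CPM against 849.3 and 440.8 CPM.

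Genes of ribosomes and respiration lay mostly a little above 0. Of 80 cytosolic ribosomal protein genes tested, 0 were called by edgeR, 36 were higher and 0 lower at an unadjusted p under 0.05, 76 lay above 0 and the median was log2 0.48. Of 77 respiratory chain genes the corresponding counts were 0, 53, 0 and 73, and the median was log2 0.52. Of all tested genes, 8.88% were higher and 5.52% lower at an unadjusted p under 0.05. DESeq2 called 18 of the ribosomal and 24 of the respiratory genes higher, against 241 of all 13051 tested genes. On these 2 lists limma-voom called none. Of the 3 most abundant ribosomal genes, Rplp0 was at log2 0.31 ± 0.25, Rpl4 at -0.04 ± 0.22 and Rpsa at 0.48 ± 0.27, with 3064 and 2159 CPM in LGR5 cells and 3077 and 4161 CPM in CD166 cells for Rpsa. Of the 3 most abundant respiratory genes, Atp5b was at log2 0.12 ± 0.21 and Atp5a1 at -0.03 ± 0.20. Cox4i1 had 569.4 and 448.8 CPM against 692.8 and 931.0 CPM (log2 0.68 ± 0.22). For 80 of 80 ribosomal genes CD166 library 2 was above CD166 library 1. In LGR5 cells library 2 was above library 1 for 2 of the 80. For the 77 respiratory genes these counts were 70 in CD166 cells and 7 in LGR5 cells. Both CD166 libraries lay above both LGR5 libraries for 59 of the 80 and 65 of the 77. This held for 24.1% of all tested genes. Transcript length moved with the log2 differences between the populations. Genes whose mean log2 CPM reached 3 were split by transcript length into 10 groups of near equal size. The median log2 difference was 0.39 in the group of shortest transcripts (up to 1466 bases) and -0.22 in that of the longest, and in the jejunum 0.05 and -0.06. With an offset that removed this trend, added after the data were seen, the ribosomal median was log2 0.20 and the respiratory median 0.24. Alpha-defensin transcripts are short too. With the same offset 12 genes were called, Ang4 at log2 2.02 and 11 alpha-defensins, of which Defa20, Gm15308 and Defa-ps1 had no length and received no correction. Gm10104, Defa24, Gm14850 and Rgs4 were among those that lost their call.

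Markers of other tissues were low. Of 20 lymphocyte genes 9 were tested and their summed level was 16.3 and 44.2 CPM in LGR5 cells and 12.5 and 79.2 CPM in CD166 cells, against 232.0 to 4170 CPM in ileal crypt libraries. Cd3e was at 0 in LGR5 library 1, and Cd2 was at 0 in both LGR5 libraries. Myeloid genes summed to 63.9 and 74.2 CPM against 67.6 and 77.8 CPM, stromal and endothelial genes to 30.1 and 22.0 CPM against 42.7 and 62.5 CPM, and red blood cell genes to at most 5.3 CPM. No gene on these lists was called by edgeR or limma-voom. DESeq2 called 1 stromal or endothelial gene higher, against 241 of all 13051 tested genes. The summed lymphocyte level was highest in CD166 library 2, and its part in the results was not tested.

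**Figure D3:**
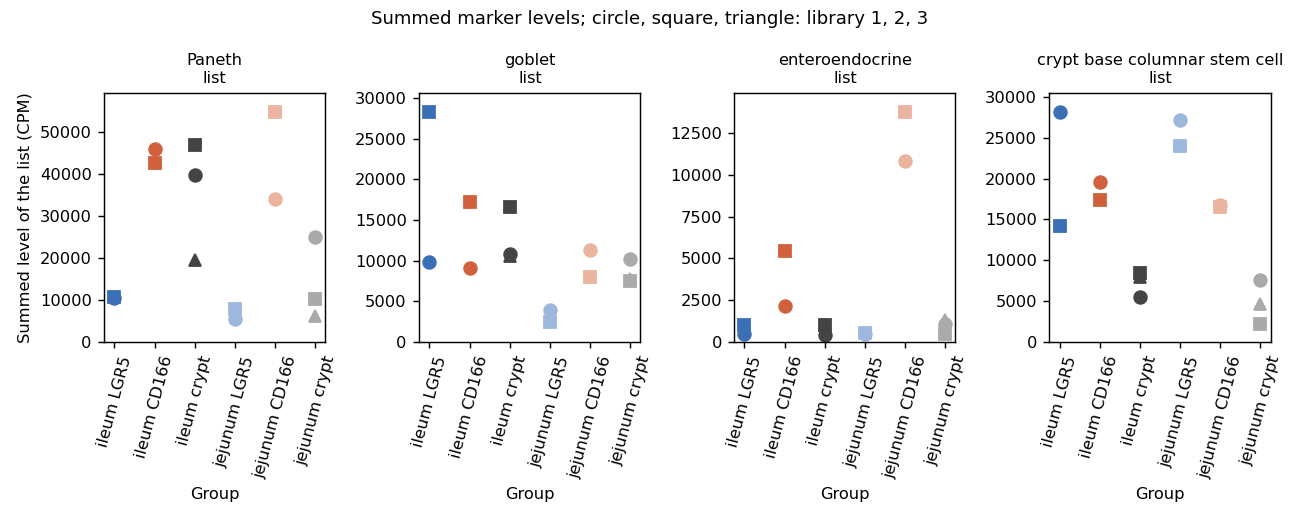
Summed CPM of 4 gene lists (vertical, linear axis from 0) in each of the 14 libraries, by group (horizontal), with circles, squares and triangles for libraries 1, 2 and 3. In the ileum the Paneth sums of CD166 cells, 45829 and 42486 CPM, lie above 10320 and 10569 CPM in LGR5 cells. The enteroendocrine sums lie apart too, at 2168 and 5433 CPM against 470.7 and 988.4 CPM in LGR5 cells. The goblet and stem cell sums overlap.

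The same contrast in the jejunum, from 4 other libraries, called many more genes. There 1331 of 13491 genes tested were called by edgeR (9.87%), 1018 higher (7.55%) and 313 lower (2.32%). Without jejunal CD166 library 2 the count was 3047, and without jejunal LGR5 library 2 it was 825. Of the 17 ileal calls, 14 were also called higher in the jejunum, which is 82.4% of the ileal and 1.38% of the jejunal genes called higher. The exceptions were Gm15292, Defa21 and Defa20. The summed alpha-defensins differed by log2 2.47 ± 0.44 in the jejunum (3440 and 5634 CPM in LGR5 cells, 17678 and 33623 CPM in CD166 cells). The difference between the regions was log2 0.03 ± 0.51 (edgeR adjusted p = 0.986). Ang4 differed by log2 2.60 ± 0.29 in the jejunum, and the regional difference was -0.13 ± 0.35. Rgs4 stood at 1.06 and 0.658 CPM in jejunal LGR5 cells and at 59.2 CPM in each jejunal CD166 library (log2 6.10 ± 0.30). Its regional difference of log2 -2.48 ± 0.57 did not pass the test (edgeR adjusted p = 0.125), which was the smallest among the 17.

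Medians of the secretory lists differed between the regions, although no test of a whole list was run. In the jejunum, edgeR called 7.55% of all tested genes higher and 2.32% lower. Goblet genes had a median of log2 -0.87 in the ileum and 1.62 in the jejunum, where 16 of 21 were called higher. Enteroendocrine genes had medians of 1.71 and 3.74, with 34 of 36 called in the jejunum. Tuft genes had medians of 0.20 and 1.58, with 15 of 18 called in the jejunum, and genes of exocytosis 0.04 and 1.92, with 14 of 22. Stem cell genes had medians of -0.28 and -0.71, and 16 of 27 were called lower in the jejunum. Lgr5 itself differed there by log2 -1.11 ± 0.21, and by a regional difference of 0.87 ± 0.63 (edgeR adjusted p = 0.594). Ribosomal genes had medians of 0.48 and -0.22, and the sparse lymphocyte genes of 0.17 (9 tested) and -1.64 (10 tested). Of these lists the regional difference itself was called for 1 Paneth gene, Wnt3, for 1 goblet gene, Muc2, and for 2 enteroendocrine genes, Pcsk1 and Tph1. It was called for 0.159% of all 13814 genes tested for it. The plot of log2 differences by list shows both regions.

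**Figure D4:**
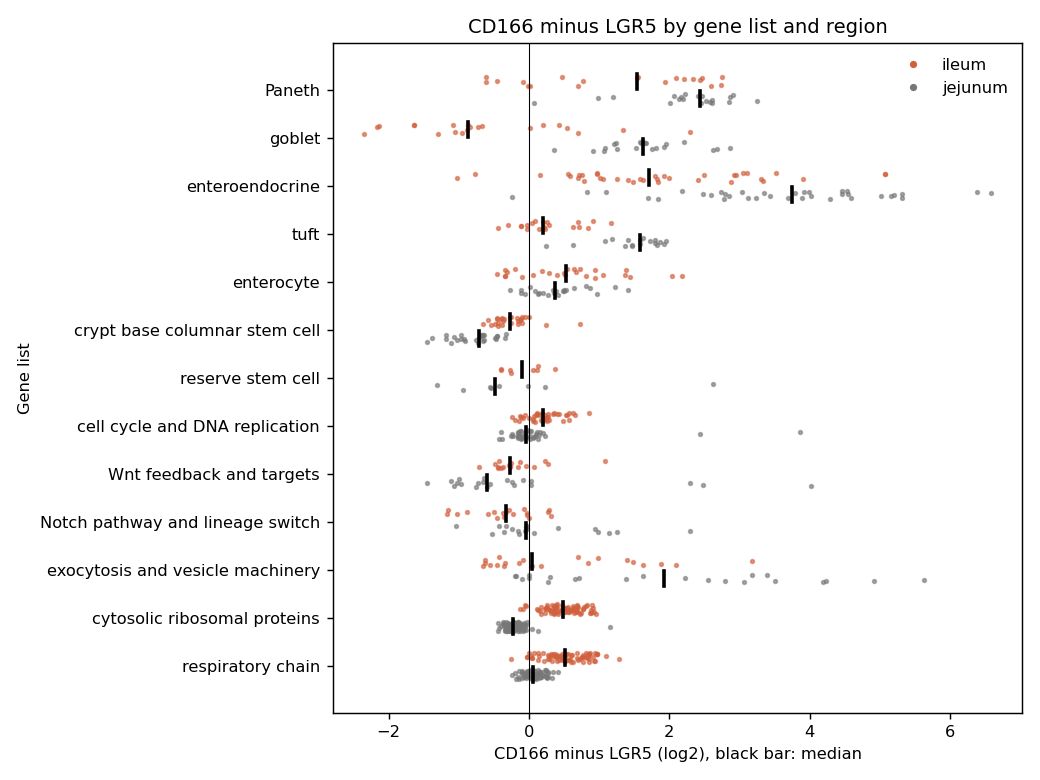
CD166 minus LGR5 log2 difference (horizontal) of each tested member of 13 gene lists (vertical), in orange for ileum and grey for jejunum, with black bars at the medians. The goblet medians lie on opposite sides of 0, at -0.87 in ileum and 1.62 in jejunum, and the Paneth medians on the same side, at 1.54 and 2.43.

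A test of the difference between the regions, fitted on the 8 sorted libraries, called 22 of 13814 genes (0.159%, edgeR). An unadjusted p under 0.05 was reached by 985 genes below 0 and 834 above 0. All 22 had a smaller difference in the ileum, and 22 were called higher in CD166 cells of the jejunum. For 21 of the 22, both ileal LGR5 libraries lay above both jejunal LGR5 libraries, as for 29.3% of all 13814 genes. The ileal CD166 libraries lay above both jejunal CD166 libraries for 8 genes and below both for 7 (17.5% and 22% of all genes), and overlapped for the others. The 22 were chosen by a test on these same levels, so the counts describe them and test nothing.

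Wnt3 had 35.2 and 41.7 CPM in ileal and 5.20 and 4.27 CPM in jejunal LGR5 cells, while CD166 cells had 37.8 and 34.7 CPM in the ileum and 32.7 and 18.4 CPM in the jejunum. Its regional difference was log2 -2.47 ± 0.37. Muc2 had 1389 and 1805 CPM in ileal but 229.0 and 160.5 CPM in jejunal LGR5 cells, against 761.8 and 745.2 CPM and 757.4 and 438.1 CPM in CD166 cells. Its regional difference was log2 -2.65 ± 0.41. Slc18a1, a vesicular monoamine transporter, had 10.04 and 21.4 CPM in ileal and 3.07 and 2.79 CPM in jejunal LGR5 cells. In CD166 cells it had 14.5 and 16.4 CPM in the ileum and 31.2 CPM in each jejunal library.

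Klf12, a zinc finger factor, and Adcy8, an adenylyl cyclase, were near absent from jejunal LGR5 cells, at 0.354 and 0.658 CPM and at 0.236 and 0.822 CPM. In ileal LGR5 cells Klf12 had 19.3 and 16.4 CPM and Adcy8 61.5 and 40.8 CPM. Ileal CD166 cells were lower than ileal LGR5 cells for both, at 11.2 and 7.82 CPM and at 36.9 and 37.4 CPM. The regional differences were log2 -4.17 ± 0.54 and -3.56 ± 0.47. Cxxc5, D10Bwg1379e and C530008M17Rik completed the 8 genes taken by the naming rule, with regional differences of -2.45, -2.005 and -2.14. The number called depended on the test: DESeq2 called 245 genes and limma-voom 0, and leaving out a library gave 0 without jejunal LGR5 library 1, jejunal LGR5 library 2 or jejunal CD166 library 1. It gave 3 without ileal CD166 library 1, 8 without ileal LGR5 library 2, 58 without ileal CD166 library 2, 353 without ileal LGR5 library 1 and 387 without jejunal CD166 library 2.

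**Figure D5:**
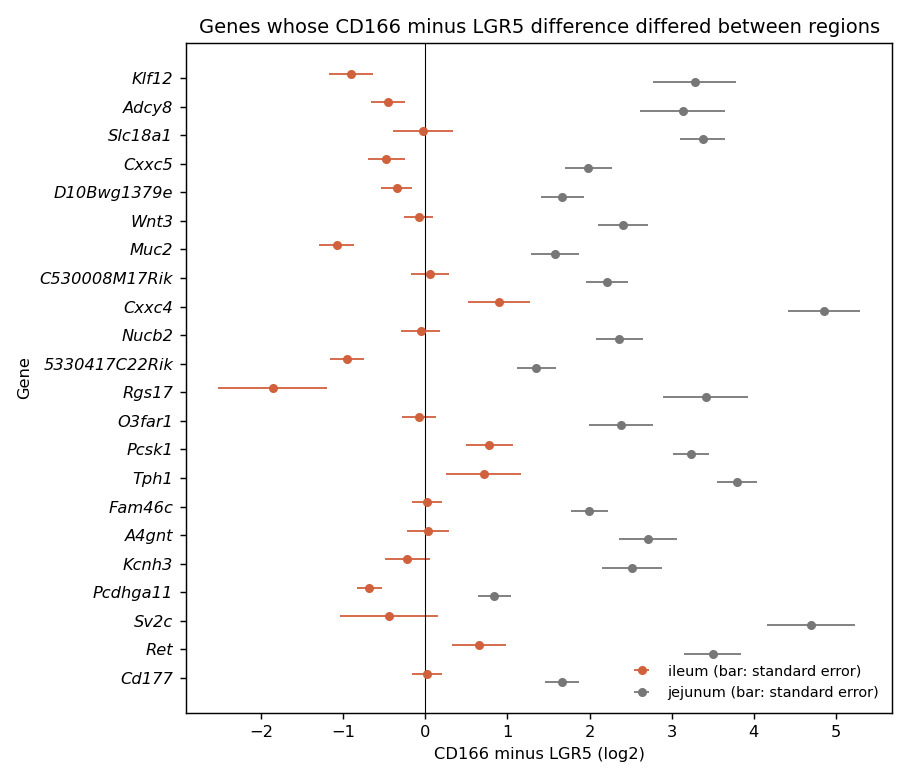
CD166 minus LGR5 log2 difference with its standard error (horizontal) for the 22 genes (vertical) whose difference itself differed between regions, in orange for ileum and grey for jejunum. The ileal values lie between -1.86 and 0.90, and each jejunal value lies to the right of its ileal one.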

How the data were processed

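RNA was sequenced from 14 libraries of mouse intestine as single-end 50-base reads, per the labels' protocols. The authors deposited expected counts per gene, unscaled although the files are named for RPKM, and separate log2 values relative to a per-gene centre, per the file headers and values. The submitters' processing notes name mm9 and DESeq; the aligner, the counter and the gene models were not given in the sources used here. Without an mm9 annotation genes of the files carry no coordinates. The 36401 genes include no entry without a gene name.

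Expected counts were rounded and filtered with filterByExpr (minimum count 10, total 15). The main test was edgeR 4.0.16 in R 4.3.3 (TMM, robust quasi-likelihood) on the 4 ileal libraries, with 1 mean a population. The regional difference was fitted on the 8 sorted libraries. A gene was called at a Benjamini-Hochberg adjusted p under 0.05. The standard error is the log2 difference divided by the square root of F. CPM values use TMM factors over all 14 libraries. The fit was tested on simulated data with known changes. The members and the 24 gene lists were chosen with earlier results of these data known. Named were Lgr5, Alcam, Cd44 and Cd24a, the 15 called genes of largest change in each direction whose mean log2 CPM reached 3 and whose groups did not overlap (places left over went to the smallest p), per list up to 5 called and 3 other members by level, and 8 genes of the regional difference. A repeated symbol stands for its entry with the highest count. Alternatives were DESeq2 1.42.0 (size factors or test), no filter, 1 CPM in 2 libraries, limma-voom (limma 3.58.1), deposited log2 values with limma, fits on 8 or 14 libraries, leaving out each library and a replicate block. Summed alpha-defensins and a length offset were added after the data were seen. Transcript lengths came from GENCODE M21 (97.2% of tested genes matched), promoters from RefSeq. The results of 2 entries are not reported here. Replicate numbers pair only 2 libraries a population, and the labels give them no meaning.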

Additional observations from a re-analysis of the deposited data

Results flagged for a closer look

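The CD166 minus LGR5 difference of 22 genes differed between ileum and jejunum by an interaction test over the 8 sorted libraries (edgeR adjusted p from 0.0246 to 0.0454). Each value is the ileal minus the jejunal log2 difference. Among enteroendocrine and neurosecretory genes it was -3.38 for Slc18a1, -3.05 for Tph1, -2.44 for Pcsk1, -5.13 for Sv2c and -2.40 for Nucb2. Among genes of the secretory crypt base it was -2.47 for Wnt3, -2.65 for Muc2 and -2.67 for A4gnt. Among transcription and zinc finger factors it was -4.17 for Klf12, -2.45 for Cxxc5 and -3.94 for Cxxc4. Among receptors, channels and signalling genes it was -3.56 for Adcy8, -5.26 for Rgs17, -2.44 for O3far1, -2.82 for Ret and -2.72 for Kcnh3. For the others it was -2.005 for D10Bwg1379e, -2.14 for C530008M17Rik, -2.29 for 5330417C22Rik, -1.96 for Fam46c, -1.50 for Pcdhga11 and -1.63 for Cd177. The 14 genes outside the naming rule were named because this test called them. Rgs17, Sv2c and Tph1 were low in the ileum, at no more than 6.57 CPM in any of its 4 sorted libraries.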

How the results depend on the processing

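The 17 called genes kept their direction under every alternative run that kept them as single genes; with alpha-defensins summed only Ang4 and Rgs4 could be followed, and both kept theirs. Counts of called genes in the ileum were 17 with DESeq2 size factors and with 1 CPM in 2 libraries, 18 with limma-voom and 12 with the length offset. They were 805 without a filter (618 higher, 187 lower), 273 with DESeq2 (241 and 32), 61 in the 8 sorted libraries (59 and 2), 2 in all 14 libraries (2 higher), 0 with deposited log2 values and 1 with alpha-defensins summed. Leaving out each library gave 0 to 148 called, 0 to 148 higher and 0 to 27 lower: 47 without LGR5 1, 15 without LGR5 2, 148 without CD166 1 and 0 without CD166 2. In those fits the lone library is assumed to vary like the other group. The cause was not tested. Called Paneth genes numbered 13 without a filter, 0 in all 14 libraries, 0 with deposited log2 values, and 0 to 8 without single libraries; the Paneth median was 1.22 with the length offset and 1.26 to 1.84 without single libraries.

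Replicate numbers were no pairing by the labels; deviations of same-numbered libraries correlated at 0.313. The replicate block called 671 genes in the ileum (532 higher, 139 lower), all 17 among them, and 62 for the regional difference, which had 245 with DESeq2, 0 with limma-voom and 0 to 387 without single libraries. The jejunum had 825 to 3047 without single libraries.

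Among genes followed, signs turned only for uncalled ones. With the length offset Cd24a was -0.0354, Olfm4 -0.0194, Tff3 -0.45, Nts -0.15, Mki67 0.0901 and Dclk1 0.17. Olfm4 was -0.00328 without a filter and -0.00313 in all 14 libraries; Dclk1 was 0.0874 with limma-voom, 0.0826 with the replicate block and 0.0706 with deposited log2 values. Without single libraries Axin2 ran from -0.48 to 0.19, Dclk1 from -0.84 to 1.14, Dll4 from -0.86 to 0.10, Mki67 from -0.30 to 0.0549, Olfm4 from -0.48 to 0.72, Nts from -0.49 to 1.27, Tff3 from -0.79 to 1.17, Wnt3 from -0.22 to 0.0574, Cd24a from -0.17 to 0.38, Cd44 from -0.35 to 0.63 and Lgr5 from -0.80 to 0.63.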
